A study of Mus musculus with 12 samples.

Results

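Renal calcium handling was examined through 9 genes of calcium entry, buffering, extrusion and sensing: Trpv5, Trpv6, Calb1, S100g, Slc8a1, Atp2b1, Atp2b4, Casr and Cldn14. They were chosen by symbol, from knowledge of the pathway and with earlier results of these data known, out of 32047 genes in the count table. Shares and medians of these genes beside those of all genes are therefore descriptions. All 9 were found in the table and passed the filter on low counts. RNA was sequenced from mouse kidney in 12 libraries, 4 in each of 3 groups. In the FGF23 variant group (titles AKI_A_FGF23_R176QR179Q, replicates 1, 2, 3 and 5), mice overexpressed an FGF23 protein with the substitutions R176Q and R179Q for 3 weeks and then received a rhabdomyolysis model of acute kidney injury (AKI), in which muscle breakdown damages the tubules. The mCherry group (AKI_A_mcherry, replicates 1 to 4) carries the name of a fluorescent protein and the same AKI tag. The third group is titled NC, which the labels do not expand, and its titles carry neither an AKI tag nor an expressed protein. An FGF23 variant group without injury was not analysed here. The sources used here give no vector, promoter, strain, sex or age of the mice. Separate animals behind the 4 libraries of a group are not stated either, so p-values measure only the spread between these libraries, which may be technical.

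FGF23 is a bone hormone that acts on the kidney through FGF receptors with the co-receptor Klotho, and R176Q and R179Q are known to protect it from cleavage. In the late distal convoluted tubule and the connecting tubule, calcium enters the cell through the channels TRPV5 and TRPV6, is carried across it by calbindins, and leaves by the sodium-calcium exchanger NCX1 and plasma membrane calcium pumps. Parathyroid hormone and active vitamin D are known to raise this route. Upstream, in the thick ascending limb, the calcium-sensing receptor restrains calcium uptake between cells, where claudin-14 closes the pore formed by claudin-16 and claudin-19.

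The 9 genes did not move as one. Against NC, the mCherry group had less RNA of both calbindins, the exchanger Slc8a1 and the receptor Casr, and more of Trpv6 and Cldn14. In the FGF23 variant group Calb1, Slc8a1 and Casr were 2.76- to 3.89-fold above the mCherry group. S100g, the other calbindin, went the opposite way and was 3.31-fold below it.

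Promoter sequences of the genes for the small calbindin and both channels are shown because they differed in how they moved: S100g was lowest in the FGF23 variant group, Trpv6 highest in the mCherry group, and Trpv5 highest in the FGF23 variant group. They are 250 bases that end at the base before the RefSeq start, 5′ to 3′ on the gene's strand, from RefSeq on build GRCm38.p6, which is not the build of the deposited files (GRCm39). A promoter was matched for 8 of the 9 genes, and Calb1 was the one without. Capitals mark AGGTCA (nuclear receptor half-site, either strand, so that the opposite strand reads TGACCT) in the first 2 sequences. In the last they mark TATAAA, a core promoter element searched on the gene strand only.
S100g, chrX:162964600-162964849, minus strand: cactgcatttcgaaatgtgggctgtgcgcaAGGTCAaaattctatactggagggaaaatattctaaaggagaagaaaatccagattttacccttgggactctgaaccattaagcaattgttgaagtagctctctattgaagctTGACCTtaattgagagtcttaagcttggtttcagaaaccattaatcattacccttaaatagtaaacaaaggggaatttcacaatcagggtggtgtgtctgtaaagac
Trpv6, chr6:41636406-41636655, minus strand: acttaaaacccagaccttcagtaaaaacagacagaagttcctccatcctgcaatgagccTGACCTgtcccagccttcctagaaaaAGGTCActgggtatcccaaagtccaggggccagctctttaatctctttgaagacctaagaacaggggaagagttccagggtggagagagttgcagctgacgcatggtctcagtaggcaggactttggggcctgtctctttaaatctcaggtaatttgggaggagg
Trpv5, chr6:41680724-41680973, minus strand: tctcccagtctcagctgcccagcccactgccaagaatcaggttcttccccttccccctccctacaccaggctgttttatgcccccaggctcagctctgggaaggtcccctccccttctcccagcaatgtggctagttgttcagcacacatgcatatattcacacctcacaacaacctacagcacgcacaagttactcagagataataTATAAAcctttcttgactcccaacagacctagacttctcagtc
The S100g window had AGGTCA on the gene's strand at positions -220 to -215 from the start and on the other strand at -107 to -102. The Trpv6 window had it on the gene's strand at -165 to -160 and on the other strand at -191 to -186. All 3 windows of the Cldn14 starts held it as well, at -124 to -119 and -192 to -187 on the gene's strand in the first and the third and at -213 to -208 on the other strand in the remaining one, and no window of another member did. The Trpv5 window, without AGGTCA, had TATAAA at -43 to -38. AGGTCA on either strand was found in 14.0% of 32851 promoter windows of the same length, and TATAAA on the gene strand in 7.59%. The DR3 element, the paired half-site that the vitamin D receptor is known to bind, was in 0.222% of windows and in none of the members' windows. The share of G and C was 38.4% in the S100g window and 78.4% and 80.8% in the windows of both Atp2b1 starts, against a median of 52.4% over all windows. A match describes these letters only and shows no binding.

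Total counts per library ran from 55324078 to 70638283. Fgf23 itself had 320 to 517 counts in each FGF23 variant library and 0 in all 8 others, where 0 counts allow up to 3. It thus separated the libraries as labelled. CPM values below (counts scaled to a common library total) are corrected with TMM factors (edgeR's trimmed-mean library scaling) over all 12 libraries, and these factors were higher in the FGF23 variant group (1.12 to 1.15) than in the mCherry group (0.903 to 1.02) and NC (0.879 to 0.911). Each comparison was tested on its own 8 libraries with edgeR's quasi-likelihood F test, with Benjamini-Hochberg adjustment over all genes tested and a threshold of 0.05. Log2 differences are given with their standard error (SE) and a ± after a mean is the SD over 4 libraries. In whole kidney RNA, fewer cells of a type and less RNA per cell cannot be told apart.

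**Figure D1:**
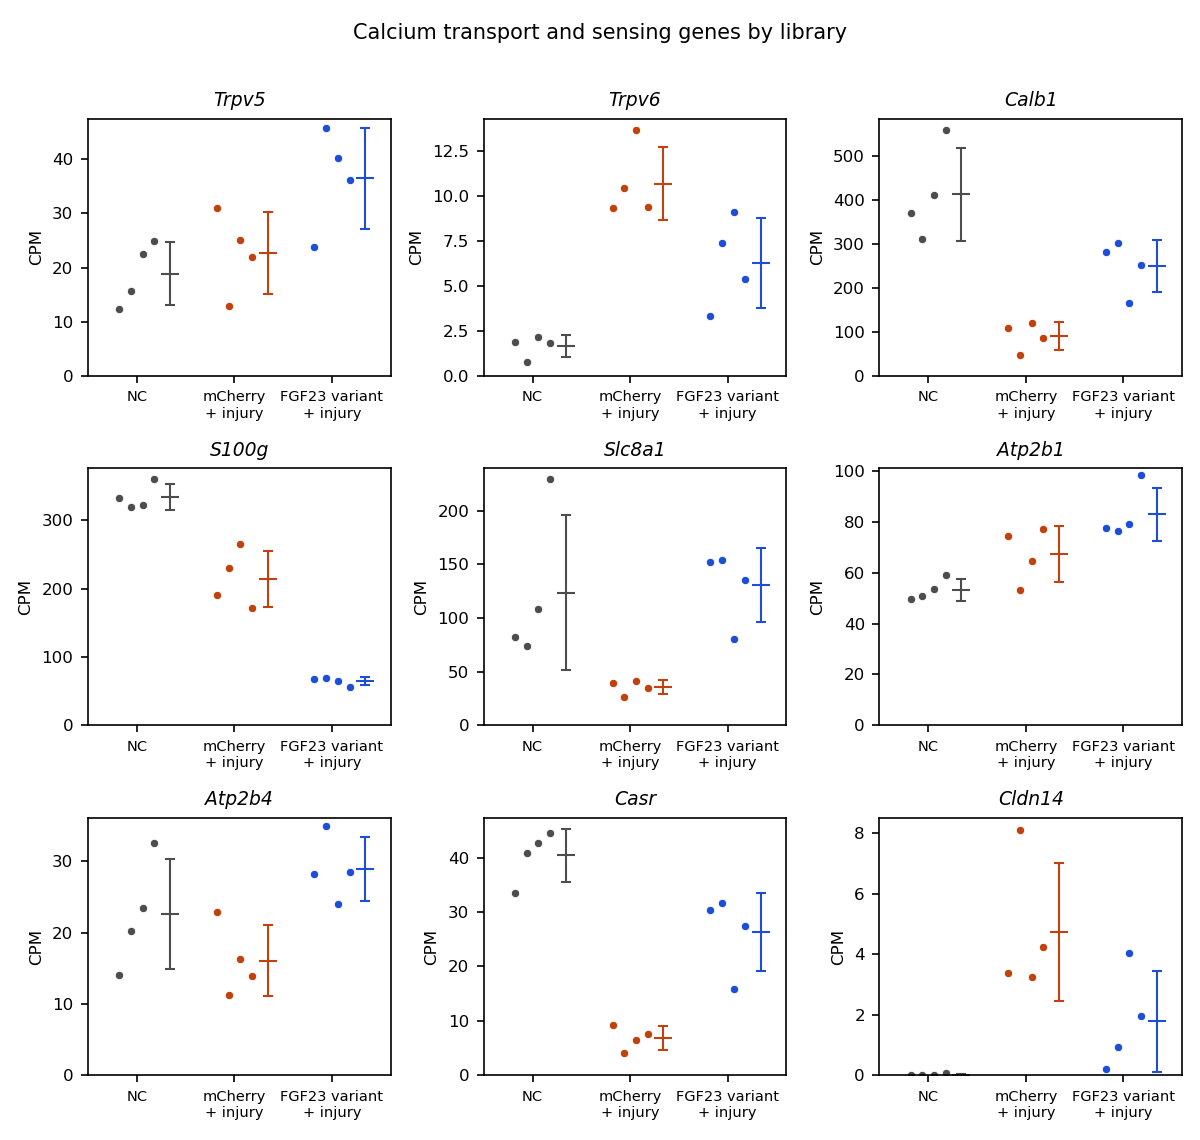
CPM of the 9 genes in each library (points), with the mean and SD of each group beside them, on linear axes from 0 that differ between genes. S100g steps down from NC (319.6 CPM or more) to the FGF23 variant group (69.2 CPM or less), while Calb1, Slc8a1 and Casr are lowest in the mCherry group.

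Compared with NC, the mCherry group had 3 of the 9 genes higher, 4 lower and 2 not past the threshold. Over all 18724 genes tested, 53.1% passed, 27.2% higher and 26% lower. The median log2 difference was -0.47 over the 9 genes and -0.00264 over all genes. With a background this high, the number of members called says little of the members in particular. The libraries did not overlap for 6 members, 2 higher and 4 lower, where 51.5% of all genes did not overlap, 25.5% higher and 26% lower. The whole table had 5088 genes higher and 4859 lower, and with library totals alone in place of TMM these were 5828 and 3958. NC differs from the mCherry group in injury and in mCherry, which cannot be told apart here.

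Between the FGF23 variant and mCherry groups, both injured, 4 of the 9 genes were higher, 1 was lower and 4 did not pass. The background was 23.1% of 18824 genes, 11.7% higher and 11.4% lower. The median log2 difference was 0.69 over the 9 genes and 0.00837 over all genes. All genes divided into 2199 higher and 2148 lower, against 4060 and 1035 with library totals alone. The libraries did not overlap for 6 members, 4 higher and 2 lower, beside 28.4% of all genes, 14.5% higher and 13.9% lower.

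Between the FGF23 variant group and NC, 4 were higher, 3 lower and 2 not past the threshold, where 42.3% of 19005 genes passed, 21.7% higher and 20.6% lower. The median was 0.38 over the 9 genes and 0.011 over all, while the whole table had 4123 genes higher and 3912 lower, or 7829 and 2096 with library totals alone. Again 6 members did not overlap, 3 higher and 3 lower, beside 41.6% of all genes, 20.4% higher and 21.1% lower. The 3 comparisons share libraries in pairs, so their values are not independent of each other.

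**Figure D2:**
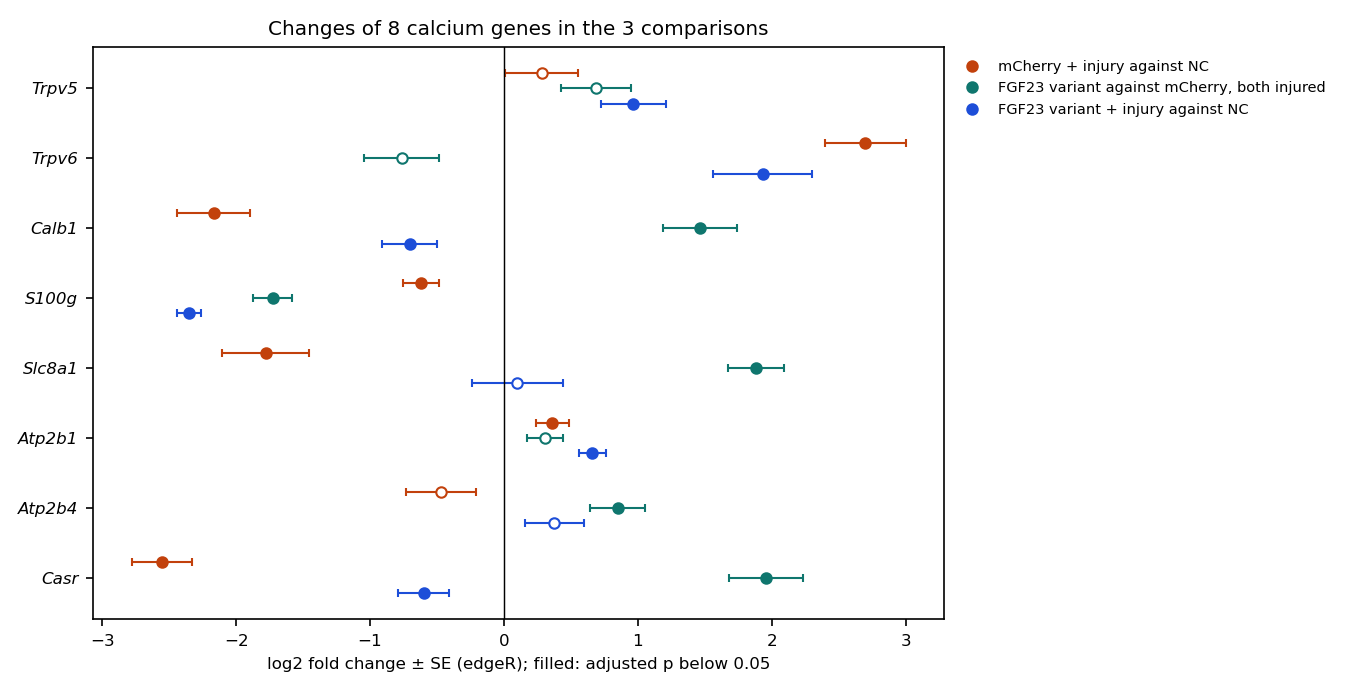
Log2 fold change with SE for 8 of the 9 genes in the 3 comparisons. Cldn14 is left out because NC holds 4 counts in all. Filled points passed the threshold, and S100g is the one gene with filled points below 0 in all 3.

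Trpv5 encodes the apical channel through which most calcium enters distal tubule cells. Its CPM in NC replicates 1 to 4 was 12.4, 15.7, 22.6 and 24.9, in the mCherry group 30.9, 12.8, 25.1 and 21.9, and in the FGF23 variant group 23.9, 45.8, 40.2 and 36.2. NC and mCherry libraries ran through each other, and 3 of the 4 FGF23 variant libraries lay above all others. Trpv5 rose in the FGF23 variant group against NC by a log2 of 0.97 ± 0.24 (edgeR adjusted p = 0.00855), although replicate 1 of that group lay within the NC range. Against the mCherry group the log2 difference of 0.69 ± 0.26 did not pass (edgeR adjusted p = 0.0835). That last result passed with library totals alone (adjusted p = 0.0398), in DESeq2 (0.0337) and in edgeR without mCherry replicate 1 (0.0449). The mCherry group and NC differed by 0.28 ± 0.27 on the log2 scale (edgeR adjusted p = 0.415).

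Trpv6 encodes the second channel, a close relative of Trpv5 beside it in the genome, so reads could be divided between them in the authors' counting. NC libraries had 1.90, 0.772, 2.19 and 1.82 CPM, mCherry libraries 9.34, 10.4, 13.7 and 9.38, and FGF23 variant libraries 3.31, 7.39, 9.11 and 5.41. The 3 groups did not overlap, with mCherry highest and NC lowest, from 44 to 134 counts per library in NC. Trpv6 rose 6.49-fold in the mCherry group against NC (log2 2.70 ± 0.30, edgeR adjusted p = 3.24e-05) and 3.81-fold in the FGF23 variant group (log2 1.93 ± 0.37, edgeR adjusted p = 0.00178). The difference between both injured groups was -0.76 ± 0.28 and did not pass in edgeR (adjusted p = 0.0751). It passed in DESeq2 (adjusted p = 0.0266) and in edgeR without FGF23 variant replicate 3 (0.0333).

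Per length, the order of the channels held but their distance did not. In the authors' FPKM (fragments scaled to gene length and depth), Trpv5 was 15.7 ± 7.43 times Trpv6 in NC (range 7.97 to 25.4), 2.65 ± 1.08 times in the mCherry group (1.49 to 4.03) and 7.44 ± 1.48 times in the FGF23 variant group (5.36 to 8.76; SD, n = 4). The mCherry ratios lay below all others, and the remaining groups overlapped. Trpv5 was thus above Trpv6 in every library.

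Calb1 encodes the large calbindin, which buffers and ferries calcium in the distal convoluted and connecting tubule. NC libraries had 372, 312, 412 and 560.4 CPM, mCherry libraries 109, 48.0, 121 and 87.0, and FGF23 variant libraries 281, 303, 167 and 253. No library of one group reached into another: the order was NC, FGF23 variant, mCherry. Calb1 fell 4.49-fold in the mCherry group against NC (log2 -2.17 ± 0.27, edgeR adjusted p = 7.42e-05) and was 2.76-fold higher in the FGF23 variant than in the mCherry group (log2 1.46 ± 0.27, edgeR adjusted p = 0.00574). Against NC the FGF23 variant group was lower by a log2 of -0.70 ± 0.21 (edgeR adjusted p = 0.0192). This last call was lost with library totals alone (adjusted p = 0.153), with a block for the replicate number (0.170) and without NC replicate 4 (0.0554).

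S100g encodes the small calbindin, a known target of the vitamin D receptor in gut and kidney. Its CPM was 333, 319.6, 322 and 361 in NC, 191, 230.3, 265 and 171 in the mCherry group and, with the FGF23 variant, 68.2, 69.2, 65.0 and 55.9. The groups did not overlap with the FGF23 variant libraries lowest (55.9 to 69.2 CPM). S100g fell 1.54-fold in the mCherry group against NC (log2 -0.62 ± 0.13, edgeR adjusted p = 0.00266). It was a further 3.31-fold lower in the FGF23 variant group (log2 -1.73 ± 0.14, edgeR adjusted p = 1.51e-04), and 5.11-fold lower there than in NC (log2 -2.35 ± 0.09, edgeR adjusted p = 1.19e-07). Of the 9 genes it was the one below the mCherry group at the threshold.

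The balance of the calbindins therefore differed between all groups. In FPKM, S100g was 8.44 ± 1.63 times Calb1 in NC (range 6.50 to 10.3), 27.1 ± 14.4 times in the mCherry group (17.7 to 48.5) and 2.73 ± 0.803 times in the FGF23 variant group (2.23 to 3.93; SD, n = 4). The ranges did not overlap, and mCherry replicate 2, with the least Calb1, had the highest ratio. S100g remained the more abundant of the pair per length in all 12 libraries.

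**Figure D3:**
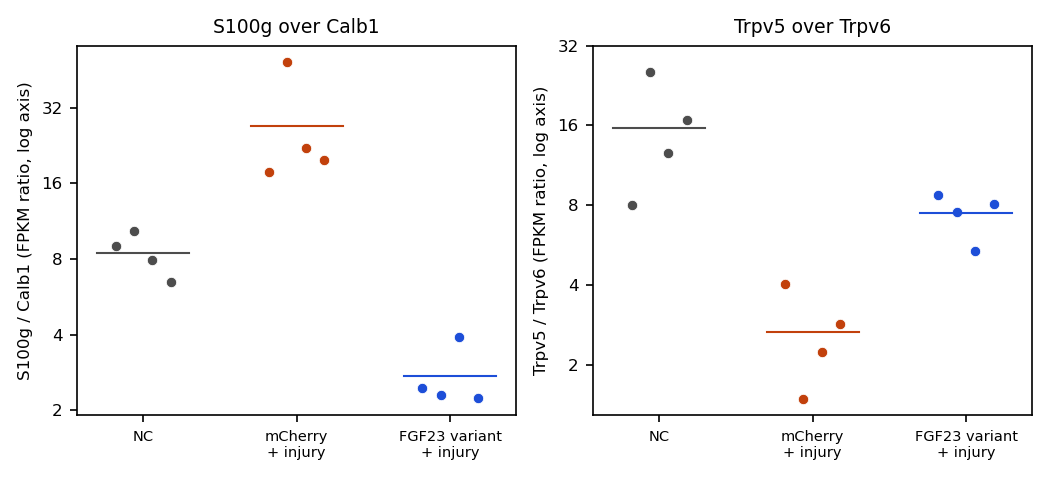
Ratio of FPKM of S100g to Calb1 (left) and of Trpv5 to Trpv6 (right) in each library on log axes, with group means as lines. The mCherry libraries are highest on the left (17.7 or more) and lowest on the right (4.03 or less).

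Slc8a1 encodes NCX1, which exports calcium in exchange for sodium on the basolateral side. NC libraries had 82.2, 74.2, 109 and 229 CPM, mCherry libraries 39.8, 26.7, 41.0 and 34.4, and FGF23 variant libraries 152, 154, 80.6 and 136. All mCherry libraries lay below all others, and NC replicate 4 stood above the other 3 of its group. Slc8a1 fell 3.43-fold in the mCherry group against NC (log2 -1.78 ± 0.33, edgeR adjusted p = 9.81e-04) and was 3.69-fold higher in the FGF23 variant than in the mCherry group (log2 1.88 ± 0.21, edgeR adjusted p = 6.28e-04). Against NC the FGF23 variant group differed by a log2 of 0.10 ± 0.34 (edgeR adjusted p = 0.839), and by 0.58 without NC replicate 4 (adjusted p = 0.0753).

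Atp2b1 and Atp2b4 encode plasma membrane calcium pumps, Atp2b1 being the form found in most cell types. Atp2b1 had 49.6, 50.7, 53.6 and 58.9 CPM in NC, 74.6, 53.3, 64.4 and 77.1 in the mCherry group and 77.6, 76.5, 79.2 and 98.5 in the FGF23 variant group. It rose in the FGF23 variant group against NC by a log2 of 0.66 ± 0.10 (edgeR adjusted p = 4.83e-04), with no overlap. The rise in the mCherry group was smaller, 0.36 ± 0.12 (edgeR adjusted p = 0.0310), with mCherry replicate 2 inside the NC range. It did not pass with no filter on low counts (adjusted p = 0.0518) or when 1 of 5 single libraries was left out (mCherry replicate 1 or 4, or NC replicate 1, 2 or 3; 0.0621 to 0.0875). Both injured groups differed by 0.30 ± 0.13 (edgeR adjusted p = 0.127), which passed with library totals alone (0.0389).

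Atp2b4 was at 14.1, 20.2, 23.4 and 32.5 CPM in NC, 22.9, 11.3, 16.2 and 13.9 in the mCherry group and 28.3, 34.9, 24.1 and 28.5 in the FGF23 variant group. Every FGF23 variant library was above every mCherry library, while NC spread across both. Atp2b4 was higher in the FGF23 variant than in the mCherry group by a log2 of 0.85 ± 0.21 (edgeR adjusted p = 0.0163). The differences from NC were -0.47 ± 0.26 in the mCherry group (edgeR adjusted p = 0.157) and 0.38 ± 0.22 in the FGF23 variant group (0.193), and neither passed. Without mCherry replicate 1 or NC replicate 1 the first passed (adjusted p = 0.0473 and 0.0498), and without NC replicate 4 or with library totals alone the second did (0.0297 and 0.0178).

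On the exit side, the balance of exchanger and pump is given per length. Slc8a1 FPKM was 1.83 ± 0.900 times that of Atp2b1 in NC (range 1.19 to 3.15), 0.429 ± 0.0641 times in the mCherry group (0.363 to 0.515) and 1.29 ± 0.390 times in the FGF23 variant group (0.825 to 1.64; SD, n = 4). Atp2b1 was the higher of this pair in every mCherry library. Atp2b1 was in turn 2.03 ± 0.574 times Atp2b4 in NC, 3.52 ± 0.793 times in the mCherry group and 2.35 ± 0.460 times in the FGF23 variant group, with ranges that overlapped.

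Casr encodes the calcium-sensing receptor, in kidney most abundant in the thick ascending limb. NC libraries had 33.5, 40.8, 42.7 and 44.5 CPM, mCherry libraries 9.24, 3.96, 6.41 and 7.48, and FGF23 variant libraries 30.4, 31.6, 15.9 and 27.3. The groups did not overlap, and 1 FGF23 variant library, replicate 3, lay between the mCherry libraries and the rest of its group. Casr fell 5.88-fold in the mCherry group against NC (log2 -2.56 ± 0.22, edgeR adjusted p = 5.96e-06) and was 3.89-fold higher in the FGF23 variant than in the mCherry group (log2 1.96 ± 0.28, edgeR adjusted p = 0.00167). Its lower level in the FGF23 variant group than in NC, -0.60 ± 0.19 (edgeR adjusted p = 0.0276), did not hold in several settings. It was lost with library totals alone (adjusted p = 0.269), no filter (0.0616), all 12 libraries in 1 fit (0.0545) and a block for the replicate number (0.150). It was also lost without FGF23 variant replicate 5 or NC replicate 2, 3 or 4 (0.0525 to 0.0691).

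Cldn14 encodes claudin-14, whose RNA in the thick ascending limb is known to rise when the calcium-sensing receptor is active. It had 193, 405, 206 and 285 counts in the mCherry libraries (3.38, 8.10, 3.26 and 4.24 CPM) and 16, 73, 287 and 138 in the FGF23 variant libraries (0.203, 0.939, 4.04 and 1.94 CPM). NC held 4 counts in replicate 4 and 0 in the others. Both injured groups were above NC in every library (edgeR adjusted p = 1.05e-05 for mCherry and 0.00113 for the FGF23 variant), and no fold is given against so few counts. FGF23 variant replicate 3 lay within the mCherry range. The difference between injured groups, -1.41 ± 0.68 on the log2 scale, did not pass (edgeR adjusted p = 0.158), and passed without that library (-2.20, adjusted p = 0.0423).

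Ordered by FPKM, the 9 genes kept the calbindins on top in each group. In NC, S100g (571.9 ± 22.2 FPKM) and Calb1 (70.1 ± 16.7) were followed by Casr (7.04), Slc8a1 (5.37), Trpv5 (4.78), Atp2b1 (2.87), Atp2b4 (1.51), Trpv6 (0.345) and Cldn14 (0.0050). Neighbours from Casr to Atp2b1 overlapped between libraries and the other neighbours did not. In the mCherry group S100g (402.7 ± 79.9) alone stood clear of its neighbour: Calb1 (17.2), Trpv5 (6.40), Atp2b1 (4.02), Trpv6 (2.46), Cldn14 (1.97), Slc8a1 (1.72), Casr (1.31) and Atp2b4 (1.19) each overlapped the next. In the FGF23 variant group the order was S100g (140.5 ± 12.5), Calb1 (54.1), Trpv5 (11.8), Slc8a1 (7.26), Casr (5.82), Atp2b1 (5.70), Atp2b4 (2.46), Trpv6 (1.67) and Cldn14 (0.870). There S100g and Calb1, Calb1 and Trpv5, and Atp2b1 and Atp2b4 did not overlap. Casr thus went from the third place in NC to the eighth in the mCherry group and the fifth in the FGF23 variant group.

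Values of markers of the segments that carry these genes stand beside the members here. Of 6 distal convoluted tubule markers, 5 fell in the mCherry group against NC and 5 were higher in the FGF23 variant than in the mCherry group, and none was at 0. Of all genes tested, 26% fell in the first comparison and 11.7% were higher in the second. Slc12a3, the thiazide-sensitive sodium chloride cotransporter, averaged 883 ± 290 CPM in NC, 513 ± 132 in the mCherry group and 912 ± 41.1 in the FGF23 variant group. Its NC and mCherry libraries overlapped. The fall between them (edgeR adjusted p = 0.0303) did not pass with library totals alone (0.0744). The summed level of the list was 644 to 1339 CPM in NC, 435 to 748 in the mCherry group and 1005 to 1119 in the FGF23 variant group. Of 9 connecting tubule and principal cell markers 2 rose and 3 fell in the mCherry group against NC, and 1 rose and 1 fell between the injured groups, so that 5 of 9 and 2 of 9 passed where 53.1% and 23.1% of all genes tested did. Their sum was 2301 to 2594 CPM in NC, 1819 to 2212 in the mCherry group and 1470 to 2032 in the FGF23 variant group, again with none at 0.

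Set against those markers library by library, on the log2(CPM + 1) scale, part of the pattern remained and part did not. Calb1 minus the distal convoluted tubule mean was 2.92 ± 0.18 in NC, 2.05 ± 0.48 in the mCherry group and 2.66 ± 0.21 in the FGF23 variant group (SD, n = 4), and the mCherry libraries still lay below NC without overlap. The NC (2.77 to 3.09) and mCherry libraries (1.37 to 2.48) each overlapped the FGF23 variant libraries (2.41 to 2.88), unlike in CPM. S100g was 2.65 ± 0.26, 3.34 ± 0.31 and 0.75 ± 0.22 in the same order, with the FGF23 variant libraries lowest. In that list Pvalb and Klhl3 fell most in the mCherry group against NC (log2 -6.54 and -2.18), while the other 4 markers had log2 differences from -0.12 to -0.76. Without Pvalb and Klhl3, a choice made after seeing the data, S100g was 2.21 ± 0.31 in NC, 2.10 ± 0.34 in the mCherry group and -0.16 ± 0.15 in the FGF23 variant group. NC and mCherry libraries then overlapped, so the place of mCherry above NC on the scale with all 6 markers rests on those 2 genes. Calb1 without them was 2.48 ± 0.20, 0.82 ± 0.43 and 1.75 ± 0.30, in the same order of groups as with all 6. Its mCherry (0.21 to 1.21) and FGF23 variant libraries (1.32 to 1.97) then did not overlap. With all 6, Slc8a1 was 1.07 ± 0.48 in NC and 0.78 ± 0.17 in the mCherry group, which overlapped, and 1.72 ± 0.25 in the FGF23 variant group. Without Pvalb and Klhl3 its mCherry libraries (-0.46 ± 0.12) lay below NC (0.63 ± 0.46) with no overlap. Against the connecting tubule and principal cell mean, S100g was 2.24 ± 0.13, 1.68 ± 0.12 and 0.10 ± 0.16, with NC highest as in CPM. Trpv6 relative to this mean was -4.76 ± 0.45 in NC, -2.52 ± 0.07 in the mCherry group and -3.13 ± 0.42 in the FGF23 variant group. These are descriptions with no test.

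**Figure D4:**
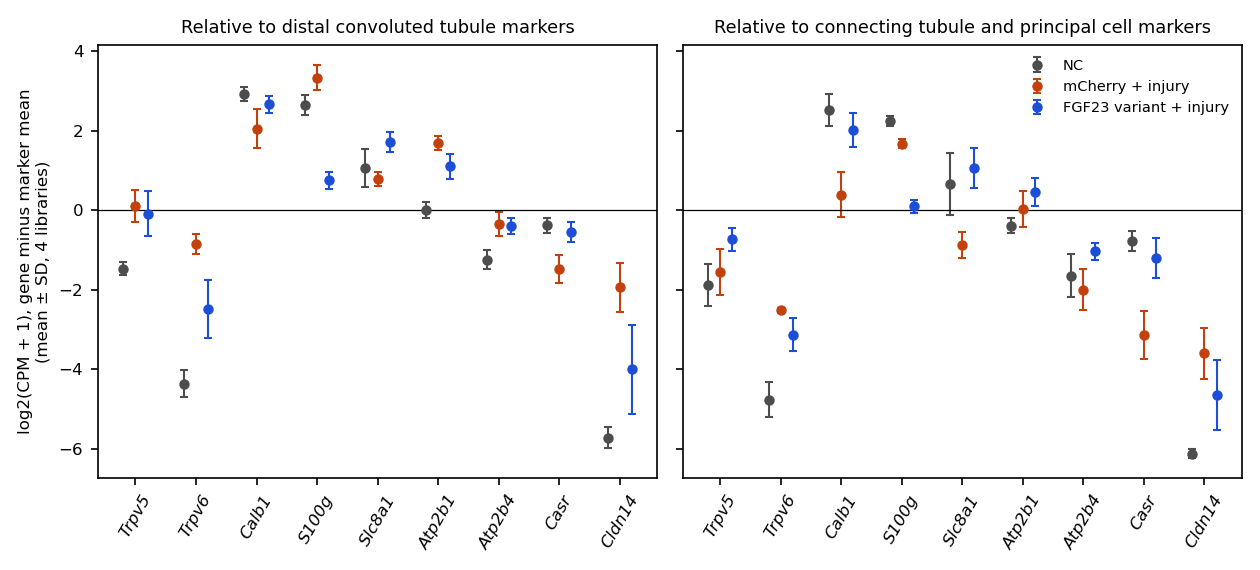
Log2(CPM + 1) of each gene minus the mean of the distal convoluted tubule markers (left) or of the connecting tubule and principal cell markers (right), as mean and SD of 4 libraries per group. S100g is lowest in the FGF23 variant group on both panels (0.75 and 0.10), while the place of its mCherry group relative to NC on the left panel rests on Pvalb and Klhl3.

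For Casr and Cldn14, the thick ascending limb list is the closer reference. Of its 8 markers, 7 fell in the mCherry group against NC, where 26% of all genes tested did. Between the injured groups 7 were higher with the FGF23 variant, as were 11.7% of all genes tested, and none of the markers was at 0. The sum was 7794 to 10632 CPM in NC, 3153 to 3587 in the mCherry group and 5239 to 7793 in the FGF23 variant group. Umod, the urinary protein uromodulin, averaged 5064 CPM in NC, 3064 in the mCherry group and 5299 in the FGF23 variant group. The part of this list in the results for Casr was not tested. Cldn14 moved opposite to it in the mCherry group.

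The genes with profiles most like each member were sought among 11036 genes, by the root mean square difference of log2(CPM + 1) over the 12 libraries after centring. For Trpv5 these were Wt1 (0.186), Ptpro (0.221) and Cadps2 (0.293), where Wt1 and Ptpro are known as genes of podocytes, the filtering cells of the glomerulus. Of 5 podocyte markers none passed in the mCherry group against NC or between the injured groups, where 53.1% and 23.1% of all genes tested did. In the FGF23 variant group against NC 2 of these markers rose and 1 fell, and 42.3% of all genes tested passed. The sum of the podocyte markers was 272 to 397 CPM in NC, 258 to 492 in the mCherry group and 322 to 445 in the FGF23 variant group, and none was at 0. Within its group, mCherry replicate 2 was lowest both in this sum and in Trpv5. That library was also lowest in the distal convoluted tubule sum (435 CPM) and in Calb1, Slc8a1, Atp2b1, Atp2b4 and Casr. It was not lowest in S100g, Trpv6 or Cldn14, or in the connecting tubule and thick ascending limb sums. Trpv5 minus the podocyte mean was -1.15 ± 0.23 in NC, -1.12 ± 0.09 in the mCherry group and -0.42 ± 0.25 in the FGF23 variant group (SD, n = 4). The part of podocyte content in the Trpv5 values was not tested.

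Genes close to Trpv6 included Trib1 (0.215) and Kctd1 (0.238), and Cldn14 was most like Rgs2 (0.321), Isg20 (0.345) and Il34 (0.350), all highest in the mCherry group. Trib1, a pseudokinase, averaged 18.5, 75.2 and 50.4 CPM in NC, mCherry and FGF23 variant. Calb1 was most like Sfrp1 (0.243), Slc16a7 (0.258) and Lhx1 (0.298), and Casr most like Slc16a7 (0.215), Pbld2 (0.230) and Fads6 (0.262). Slc16a7, a monocarboxylate transporter, stood in both lists, with 175, 29.3 and 103 CPM. S100g was most like Ldhd (0.359), Dbp (0.418) and Gpx1 (0.434), all with means that descend from NC to mCherry to FGF23 variant. Beside these, all 8 proximal tubule markers fell in both injured groups against NC, where 26% (mCherry) and 20.6% (FGF23 variant) of all genes tested did. Between the injured groups, where 11.7% of all genes tested were higher with the FGF23 variant, 4 of the 8 markers were higher, and none was at 0. Their sum was 8485 to 12466 CPM in NC, 918 to 1364 in the mCherry group and 1273 to 3009 in the FGF23 variant group. The part of proximal tubule content in the S100g values was not tested. Ldhd, a mitochondrial lactate dehydrogenase, had 1783, 754 and 273 CPM, and Dbp, a transcription factor of the circadian clock, 147, 63.7 and 31.6 CPM. Slc8a1 was most like Epb41l3 (0.389), Tmem52b (0.406) and Shd (0.407), Atp2b1 like Rad23b (0.0868), Uso1 (0.0889) and Ttc37 (0.0932), and Atp2b4 like Flt4 (0.171), Cdk14 (0.220) and Cbfa2t3 (0.220). Among the 9 genes themselves, Calb1 and Casr were closest (0.268), Trpv6 and Cldn14 differed by 0.481, and Casr and Cldn14 were farthest apart (2.16). The 1 added to CPM shrinks differences of genes near 0, such as Cldn14 and Trpv6 in NC (means of 0.0161 and 1.67 CPM). Likeness to either of them on this scale is therefore not likeness in fold.

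The hormones and sensors that act on this route showed 2 of 12 genes higher and 5 lower in the mCherry group against NC, 5 higher and 3 lower between the injured groups, and 2 higher and 5 lower in the FGF23 variant group against NC. Of all genes tested, 53.1%, 23.1% and 42.3% passed in these comparisons, and the share of this list in the mCherry group against NC was near that of all genes. Vdr, the vitamin D receptor, averaged 247 ± 34.5 CPM in NC, 64.5 ± 2.36 in the mCherry group and 175 ± 47.3 in the FGF23 variant group, with a fall of -1.92 (edgeR adjusted p = 4.30e-07) and then a log2 difference of 1.44 between injured groups (8.59e-04). Cyp24a1, which breaks active vitamin D down, averaged 64.7 ± 24.8 CPM in NC, 59.7 ± 30.0 in the mCherry group and 579 ± 201 in the FGF23 variant group, higher than in the mCherry group by a log2 of 3.28 ± 0.39 (edgeR adjusted p = 7.96e-04). Cyp27b1, which makes it, averaged 5.48 ± 1.56, 8.04 ± 6.92 and 0.799 ± 0.449 CPM, lower by -3.33 ± 0.75 (edgeR adjusted p = 0.0125).

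Kl, the Klotho co-receptor, averaged 849.5 CPM in NC, 110.2 in the mCherry group and 246 in the FGF23 variant group, and passed in all 3 comparisons. Pth1r, the parathyroid hormone receptor, averaged 730.3, 302 and 273 CPM, with a fall against NC in both injured groups and a log2 difference of -0.14 between them (edgeR adjusted p = 0.348). Klk1, tissue kallikrein of the connecting tubule, averaged 1844, 1463 and 1291 CPM. It was lower in the FGF23 variant group than in NC (log2 -0.50, edgeR adjusted p = 0.00574), though not with library totals alone (0.250). Sgk1, a kinase known to act on TRPV5, and Ap2s1, an adaptor subunit that carries the calcium-sensing receptor inward, were the genes that rose in the mCherry group against NC, by 0.86 and 1.06 on the log2 scale.

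Of 11 partners of the channels in trafficking and gating, 6 rose and 2 fell in the mCherry group against NC, 1 rose and 5 fell between the injured groups, and 6 rose and 2 fell in the FGF23 variant group against NC. Among all genes tested, 53.1%, 23.1% and 42.3% passed in these comparisons. S100a10 and Anxa2, which together bring TRPV5 and TRPV6 to the membrane, averaged 47.5, 385 and 216 CPM and 45.1, 756 and 228 CPM in NC, mCherry and FGF23 variant. Both rose against NC, by 3.04 ± 0.20 and 4.09 ± 0.28 (edgeR adjusted p = 7.52e-07 and 1.09e-06), and both were lower in the FGF23 variant than in the mCherry group, by -0.83 ± 0.18 and -1.73 ± 0.22 (0.0109 and 9.58e-04). Rab11a, a small GTPase of recycling vesicles, averaged 85.3, 175 and 103 CPM and passed between the injured groups (log2 -0.76, edgeR adjusted p = 0.00262). Pdzd3, a scaffold protein, fell in both injured groups against NC, and Fkbp4, an immunophilin, was lower in the FGF23 variant group than in NC (log2 -0.32, edgeR adjusted p = 0.0174), a sign that turned with library totals alone (0.016).

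Of 11 other pumps, exchangers and buffers listed, 8 or 9 were tested in each comparison, with 1 higher and 3 lower in the mCherry group against NC, 4 higher and 1 lower between the injured groups, and 1 higher and 2 lower in the FGF23 variant group against NC. The shares over all genes tested were 53.1%, 23.1% and 42.3% in the same order, and this list's share in the mCherry group against NC was near that of all genes. Pvalb, the parvalbumin of the early distal convoluted tubule, averaged 15.3 ± 2.48 CPM in NC, 0.160 ± 0.128 in the mCherry group and 5.16 ± 4.49 in the FGF23 variant group, a log2 fall of -6.54 ± 0.55 (edgeR adjusted p = 4.68e-06) and then a difference of 5.00 ± 0.83 between injured groups (0.00347). Atp2b2, a further plasma membrane pump, averaged 3.22, 1.44 and 2.70 CPM and passed in the same directions (edgeR adjusted p = 0.00697 and 0.0148). Atp2a2, a pump of the endoplasmic reticulum, averaged 316, 278 and 443 CPM, and passed as higher in the FGF23 variant group against both others. S100a1, a calcium-binding protein, went the other way, with 93.0, 159 and 94.2 CPM.

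On the paracellular route of the thick ascending limb and proximal tubule, 1 of 10 genes rose and 7 fell in the mCherry group against NC, 7 were higher and 1 lower in the FGF23 variant than in the mCherry group, and 4 were lower in the FGF23 variant group than in NC. Beside these, 53.1%, 23.1% and 42.3% of all genes tested passed in the same order. This list's share in the FGF23 variant group against NC was near that of all genes. Slc12a1, Kcnj1, Cldn10, Cldn16 and Cldn19 are also in the thick ascending limb marker list, so the counts of both lists are not separate results. Umod, Pvalb and Klk1 likewise stand in a pathway list and in a marker list. Cldn16 and Cldn19 encode the pore that claudin-14 closes. Cldn16 averaged 10.6, 10.1 and 11.7 CPM and passed in no comparison, with edgeR adjusted p from 0.458 to 0.743. Cldn19 averaged 45.8, 28.3 and 52.5 CPM, fell in the mCherry group (log2 -0.67, edgeR adjusted p = 0.0152) and was higher in the FGF23 variant than in the mCherry group (0.90, 0.0129). Slc12a1, the cotransporter that drives this route, averaged 1307 CPM in NC, 94.5 in the mCherry group and 700 in the FGF23 variant group. Cldn10 averaged 205, 26.9 and 79.7 CPM, and Bsnd, a chloride channel subunit, 88.6, 18.2 and 49.0 CPM, both in the same order as Casr. Cldn3, a sealing claudin, was the gene of this list that rose in the mCherry group, with 12.4, 66.5 and 18.2 CPM.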

How the data were processed

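Kidney poly(A) RNA was sequenced as strand-marked dUTP libraries, per the labels' protocols. Tools listed in the submitters' processing notes are fastp, StringTie and edgeR, with build GRCm39. Which aligner and annotation served is not given in the sources used here. Per the file headers, the authors deposited a count and an FPKM value for each of 32047 genes in 12 libraries. The value 4 was found 11995 times among the counts, 3 was found 5847 times and 5 was found 3638 times, so counts are not taken as independent molecules and the floor of 3 counts is nominal. Library pairs within groups differed beyond counting noise (chi-square per degree of freedom 34.1 to 148). A supplied table gave symbols for 31942 identifiers. Counts were tested with edgeR 4.0.16 in R 4.3.3 (filterByExpr, TMM, quasi-likelihood F test, Benjamini-Hochberg at 0.05). The code was also run on counts simulated from edgeR's own dispersions with few genes changed. That run cannot show how the test fares on these data, where many genes were called. FPKM was used only to compare genes with each other. Named genes are the 9 members, up to 3 per direction with the smallest adjusted p in each of 4 pathway lists, 7 fixed genes (Kl, Vdr, Pth1r, Cyp24a1, Cyp27b1, Klk1, Umod), first-listed markers, and for each member the 3 genes with the most similar profile among those averaging at least 5 CPM. Not all are printed, some genes are not reported here, and Cldn16, Cldn19 and S100a1 are given for their known roles. The members and lists were chosen with earlier results of these data known. Of 106 list genes 105 were found. Alternatives were library totals alone, upper quartile and RLE factors, a block for the replicate number, DESeq2 1.42.0, a joint fit of all 12 libraries, limma-voom (3.58.1, quality weights), no filter or one at 5 CPM, and each library left out.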

Additional observations from a re-analysis of the deposited data

Results flagged for a closer look

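In groups of 4 libraries, a value was singled out when its gap to the nearest other library was above Dixon's critical share of the group's whole range, among 28 groups of values. About 1 in 20 groups is picked out by chance. Atp2b1 in FGF23 variant replicate 5 was at 98.5 CPM, with a gap of 0.877 of the range, above the other 3 libraries of its group at 76.5 to 79.2 CPM. Cldn14 in NC replicate 4 was at 0.0644 CPM, from 4 counts, where the other NC libraries had 0. With those tied at 0, any count in replicate 4 would have been singled out. The cause of either value was not tested.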

How the results depend on the processing

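For the 9 genes in the 3 comparisons, 224 of the values under other settings kept direction and side of the threshold, 5 newly passed and 10 no longer did. With single libraries left out these were 200, 6 and 10, and no called member turned sign. Replicate numbers do not pair the libraries by the labels, and same-numbered libraries had correlations of deviations from -0.364 to 0.216. With the replicate number as a block, members higher in the FGF23 variant than the mCherry group went from 4 to 2, since Calb1 (adjusted p = 0.0602) and Atp2b4 (0.0925) did not pass. Their log2 differences were 1.49 and 0.83 with the block, and 1.46 and 0.85 without it. FGF23 variant replicate 5 has no same-numbered library in mCherry or NC, nor has their replicate 4 in the FGF23 variant group. In both comparisons of the FGF23 variant group, the block thus leaves only numbers 1, 2 and 3 to inform the difference. With the block, members lower in the FGF23 variant group than in NC went from 3 to 1, since Calb1 (adjusted p = 0.170) and Casr (0.150) did not pass. All genes called with it were 984 higher and 803 lower between the injured groups, with 2388 higher and 2335 lower in the FGF23 variant group relative to NC. In the mCherry group against NC, Atp2b1 did not pass with the block (0.0508). DESeq2 gave 2 members lower between the injured groups. A mean of at least 5 CPM left 2 members higher in the FGF23 variant group against NC, since Trpv6 and Cldn14 were not tested there. Library totals alone gave 1 member lower in that comparison, 4060 genes higher and 1035 lower between the injured groups, with 7829 higher and 2096 lower in the FGF23 variant group relative to NC. They moved the median of all genes to 0.12, 0.21 and 0.34 on the log2 scale. Under them, in the FGF23 variant group against NC, Calm3 (0.31), Fkbp4 (0.016), Cldn2 (0.0489) and Scnn1g (0.31) turned sign. Leaving out single libraries gave 1252 to 2088 genes higher and 1158 to 2171 lower between the injured groups. Leaving out FGF23 variant replicate 1, 2 or 5 lowered that count most. Members lower between the injured groups were 1 to 3 (3 without FGF23 variant replicate 3), and members lower in the FGF23 variant group against NC 1 to 3 (1 without NC replicate 4). The cause of these moves was not tested. Depth limits Cldn14 in NC, at 4 counts in all.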
